A study of Homo sapiens with 30 samples.

Results

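The comparison described here sets LNCaP cells treated with 0.06 nM R1881 against LNCaP cells treated with vehicle, across all measured genes. Its members are 6 of the 30 samples of the series: 3 libraries at 0.06 nM and 3 vehicle libraries, numbered 2, 3 and 4 in each group, chosen by the cell line and dose in their labels. LNCaP is an established, androgen-sensitive epithelial line grown from a prostate cancer metastasis, and R1881 is a synthetic androgen that binds the androgen receptor. In both groups 130000 cells per well were plated in RPMI 1640 with 8% charcoal-stripped fetal bovine serum, which is depleted of steroids, and were treated after 48 h, for 24 h. Total RNA was extracted and stranded messenger RNA libraries were made. The series has 15 LNCaP libraries, at 0, 0.03, 0.06, 0.1 and 10 nM, and 15 VCaP libraries not analysed here, and it asks how androgen doses differ in their effect on prostate cancer cells whose growth response to androgen is biphasic. The labels do not say whether the 3 libraries of a group came from separate cultures, so the p-values measure the spread between these libraries, which may be technical. All of them come from 1 cell line.

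An androgen that enters the cell binds the androgen receptor, which moves to the nucleus, binds DNA at androgen response elements and recruits coregulators, and so raises or lowers transcription of nearby genes. In luminal prostate cells the induced genes include secreted proteases and enzymes of lipid synthesis. In LNCaP cells a low androgen dose promotes entry into the cell cycle and a high dose restrains it. Entry into S phase is driven by cyclin-dependent kinases that inactivate the retinoblastoma proteins and free E2F factors, which activate the genes of DNA replication.

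The sequences below show what lies just upstream of some of the genes that carry the results: the androgen-induced kallikreins KLK3 and KLK2, the regulators E2F1 and E2F2, and the replication genes MCM6, DTL and PCNA. Each is the 250 bases before the gene's start, 5′ to 3′ on the gene's strand, from RefSeq on GRCh38.p14. Capitals mark the androgen response element half-site AGAACA in KLK3 and the E2F letters GCGCGAAA, TTTCCCGC and TTTGGCGC in the cell cycle genes, on either strand.
KLK3: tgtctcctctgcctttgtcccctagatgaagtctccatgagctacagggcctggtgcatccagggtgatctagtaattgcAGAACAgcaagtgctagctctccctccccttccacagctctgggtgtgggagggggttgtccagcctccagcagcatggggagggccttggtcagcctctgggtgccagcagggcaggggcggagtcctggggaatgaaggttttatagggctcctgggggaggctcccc
KLK2: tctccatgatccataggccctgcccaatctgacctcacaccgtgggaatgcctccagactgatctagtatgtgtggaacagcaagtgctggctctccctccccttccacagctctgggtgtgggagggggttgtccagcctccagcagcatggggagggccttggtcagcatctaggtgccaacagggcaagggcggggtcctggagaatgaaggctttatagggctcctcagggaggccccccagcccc
E2F1: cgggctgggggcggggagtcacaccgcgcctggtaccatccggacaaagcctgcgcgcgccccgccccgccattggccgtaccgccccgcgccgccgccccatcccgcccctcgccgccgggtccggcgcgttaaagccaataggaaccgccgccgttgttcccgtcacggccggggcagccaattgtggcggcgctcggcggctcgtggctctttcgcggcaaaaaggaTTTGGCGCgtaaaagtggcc
E2F2: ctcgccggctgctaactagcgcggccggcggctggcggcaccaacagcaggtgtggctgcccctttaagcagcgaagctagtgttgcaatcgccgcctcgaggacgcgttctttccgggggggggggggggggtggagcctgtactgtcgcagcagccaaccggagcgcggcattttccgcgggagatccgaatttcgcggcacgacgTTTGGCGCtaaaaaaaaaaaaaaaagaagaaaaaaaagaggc
MCM6: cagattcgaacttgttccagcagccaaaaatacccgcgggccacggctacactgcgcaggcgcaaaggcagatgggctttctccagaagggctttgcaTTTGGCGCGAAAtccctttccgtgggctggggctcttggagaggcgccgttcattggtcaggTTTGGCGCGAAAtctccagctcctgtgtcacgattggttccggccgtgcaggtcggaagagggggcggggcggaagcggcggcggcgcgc
DTL: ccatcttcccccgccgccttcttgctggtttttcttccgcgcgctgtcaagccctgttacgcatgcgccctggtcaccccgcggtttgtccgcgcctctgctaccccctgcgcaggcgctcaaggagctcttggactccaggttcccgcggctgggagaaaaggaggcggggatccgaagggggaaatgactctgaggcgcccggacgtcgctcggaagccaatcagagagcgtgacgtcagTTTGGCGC
PCNA: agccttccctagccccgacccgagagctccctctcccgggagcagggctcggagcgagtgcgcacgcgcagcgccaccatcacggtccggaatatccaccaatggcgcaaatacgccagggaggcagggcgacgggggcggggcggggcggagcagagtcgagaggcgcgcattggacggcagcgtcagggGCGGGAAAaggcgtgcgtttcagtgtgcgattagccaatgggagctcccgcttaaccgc
The windows lie at chr19:50854665-50854914 (KLK3, plus strand), chr19:50873189-50873438 (KLK2, plus strand), chr20:33686386-33686635 (E2F1, minus strand), chr1:23531234-23531483 (E2F2, minus strand), chr2:135876444-135876693 (MCM6, minus strand), chr1:212035498-212035747 (DTL, plus strand) and chr20:5126623-5126872 (PCNA, minus strand). The half-site in KLK3 begins 170 bases before the start. In KLK2 this exact word is not in the window, which holds ggaaca, with a different first letter, before the same gcaagtgct as in KLK3. Only exact words were searched. The TTTGGCGC of E2F1 begins 20 bases before the start and that of E2F2 42 bases before it. Starts here are those of RefSeq, and the gene positions given below are from GENCODE. By the latter the windows of E2F1 and PCNA reach into the gene, and most of the E2F1 match lies inside it. MCM6 holds TTTGGCGC and GCGCGAAA, which share 4 letters, as an overlapping pair at 152 and again at 90 bases before the start. In PCNA the match to TTTCCCGC is on the other strand, and its capitals begin 59 bases before the start.

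Across 27305 promoters of this length, 2.38% held at least 1 of the 3 E2F words and 12.4% held the half-site. Among the genes tested here that had a promoter in the table, the E2F words stood in 460 of 11984 (3.84%). They stood in 13 of the 40 origin licensing and replication genes with a promoter (32.5%), in 6 of 19 G1 and S phase regulators (31.6%), in 2 of 23 nucleotide synthesis genes (8.7%), in 1 of 28 mitosis genes (3.57%) and in 0 of 22 replication-coupled DNA repair genes. Of the genes called higher at 0.06 nM, 133 of 2429 held one (5.48%), and of those called lower, 54 of 1925 (2.81%). The half-site stood in 1 of 20 androgen-induced genes, in 906 of 11984 tested genes (7.56%), in 7.45% of the genes called higher and in 7.12% of those called lower. A match describes letters in the window and shows no binding, and the lack of one says nothing about the receptor, which often binds far from the start.

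Total counts ran from 40396721 to 43963087 in the vehicle libraries and from 30666460 to 39532215 at 0.06 nM. In each LNCaP group the library numbered 3 was set off from its 2 fellows by a principal component that held 5.86% of the variance. The share of counts from mitochondrially encoded genes was 9.31% to 10.7% in these libraries and 6.14% to 7.69% in the rest. Of 19 luminal markers 2 were under 1 CPM in both groups, and the others included KRT8 at 464 to 493 CPM (read counts scaled to a common library size) and HOXB13 at 558 to 584 CPM in vehicle. Of the 10 basal markers measured, 7 were under 1 CPM in both groups, as were 10 of 13 neuroendocrine, 7 of 10 fibroblast, 6 of 6 leukocyte and 7 of 8 endothelial markers. KRT15 and PCSK1 had 0 counts in all 6 libraries. The summed leukocyte markers reached at most 0.164 CPM in vehicle and 0.105 CPM at 0.06 nM. KRT14, a basal keratin, had 3 counts in the vehicle libraries and 50 at 0.06 nM. Summed fibroblast markers ran from 33.5 to 44.8 CPM in vehicle and from 26.4 to 33.2 CPM at 0.06 nM, mostly COL1A1, and none of the 6 tested passed the test.

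At 0.06 nM, 3114 genes were higher and 2633 lower than in vehicle. These were 16.9% and 14.3% of the 18403 genes tested, and 31.2% in all, by edgeR's quasi-likelihood test with Benjamini-Hochberg adjusted p under 0.05. Most changes were small. The median log2 change was 0.38 among genes that rose and -0.42 among genes that fell, and 65.7% of the rises and 59% of the falls were under 0.5 in size. A change of at least 2-fold was seen in 358 genes that rose and 337 that fell. The large changes were mainly rises: 70 genes rose and 5 fell by 3 or more on the log2 scale. The 3 libraries of one group did not overlap the 3 of the other in 3033 of the genes that rose and 2542 of those that fell. Such separation was common: it held in 7914 of the 18403 tested genes, of which 2339 were not called. Over all tested genes the median log2 change was -0.01, and it is against these shares and this median that the gene lists below stand. Without the 5 libraries numbered 3, 3126 genes rose and 2550 fell.

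**Figure D1:**
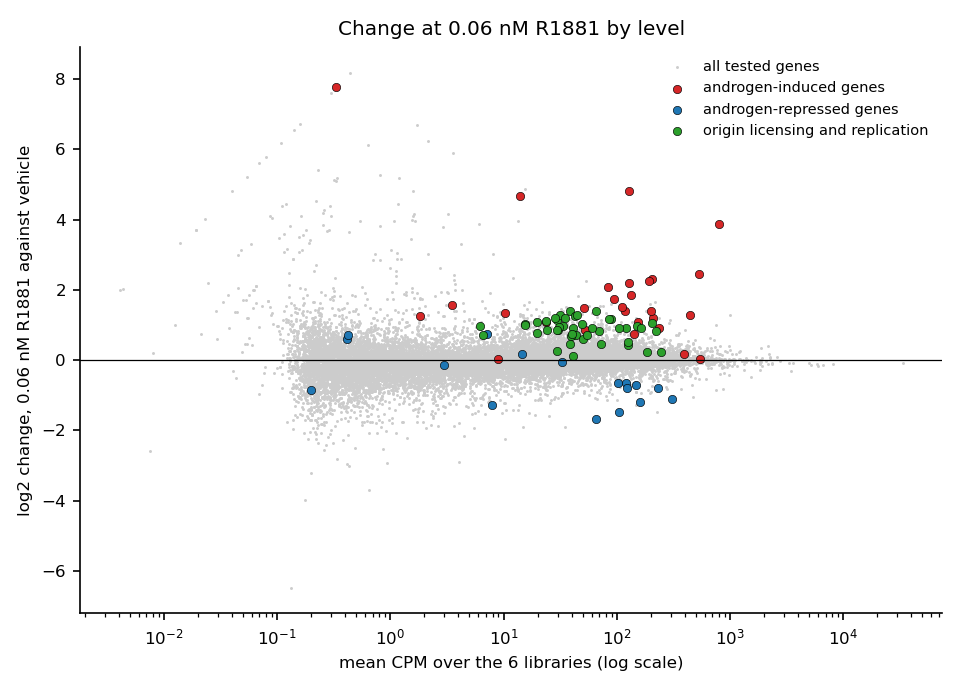
Log2 change at 0.06 nM R1881 against vehicle for each of the 18403 tested genes (vertical axis) by its mean CPM over the 6 libraries (horizontal, log scale), with 3 gene lists coloured. Androgen-induced genes (red) lie above 0, replication genes (green) form a compact band near a median of 0.91, and androgen-repressed genes (blue) lie mostly below 0; changes of genes with few counts, such as STEAP4 at the top, are uncertain.

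The established androgen-induced genes were higher in nearly every case: 26 of 28 rose, none fell, and the median log2 change was 1.44, also when STEAP4 was set at its lower bound. KLK3, which encodes prostate-specific antigen (chr19:50854915-50860764, GRCh38), measured 93.7, 107 and 107 CPM in vehicle libraries 2, 3 and 4 and 1550, 1570 and 1390 CPM at 0.06 nM. Here and below values are given in the order of the library numbers. Every treated library was far above every vehicle library, and the rise was 14.7-fold (log2 change 3.87 ± 0.09 SE, adjusted p = 7.96e-15). KLK2, its neighbour and close paralog, with which it may share reads, rose from 7.65, 9.44 and 9.23 CPM to 262, 240 and 238 CPM, or 28.1-fold (log2 4.81 ± 0.10 SE, adjusted p = 1.06e-15). The groups were again fully separate. KLK4, another protease of the cluster, rose from 28.1, 39.7 and 27.5 CPM to 124, 157 and 121 CPM (log2 2.07 ± 0.17 SE, adjusted p = 1.02e-07). No treated library of KLK4 overlapped vehicle, and library 3 was the highest in each group.

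TMPRSS2, a transmembrane serine protease, measured 60, 81.8 and 57.5 CPM in vehicle and 294, 416 and 248 CPM at 0.06 nM (log2 2.26 ± 0.21 SE, adjusted p = 3.63e-07). In each group the library numbered 3 was the highest, and the groups did not overlap. FKBP5, a chaperone of steroid receptors (chr6:35573585-35728583), rose 3.63-fold, from 60.6, 55.9 and 57.7 CPM to 220, 206 and 206 CPM (log2 1.86 ± 0.07 SE, adjusted p = 3.91e-12). SLC45A3, the transporter known as prostein, rose 4.92-fold, from 64.9, 73.5 and 69.9 CPM to 346, 363 and 316 CPM. TRPM8, a cold-sensing ion channel, rose 25.5-fold, from 0.704, 1.29 and 1.15 CPM to 23.5, 31.2 and 26.2 CPM (adjusted p = 1.43e-10). STEAP4, a metalloreductase, had 0 counts in the 3 vehicle libraries and 72 in the 3 treated ones, which is at least 28.7-fold higher when 3 counts in the group are taken as the floor. The exceptions were ADAMTS1, a secreted metalloprotease, and TIPARP, an ADP-ribosyltransferase. ADAMTS1 measured 533, 535 and 549 CPM in vehicle and 531, 561 and 562 CPM at 0.06 nM, and TIPARP 8.12, 8.84 and 9.46 CPM and 8.56, 9.28 and 9.07 CPM. Neither was separated between the groups (log2 0.03 for each, adjusted p = 0.72 and 0.847).

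**Figure D2:**
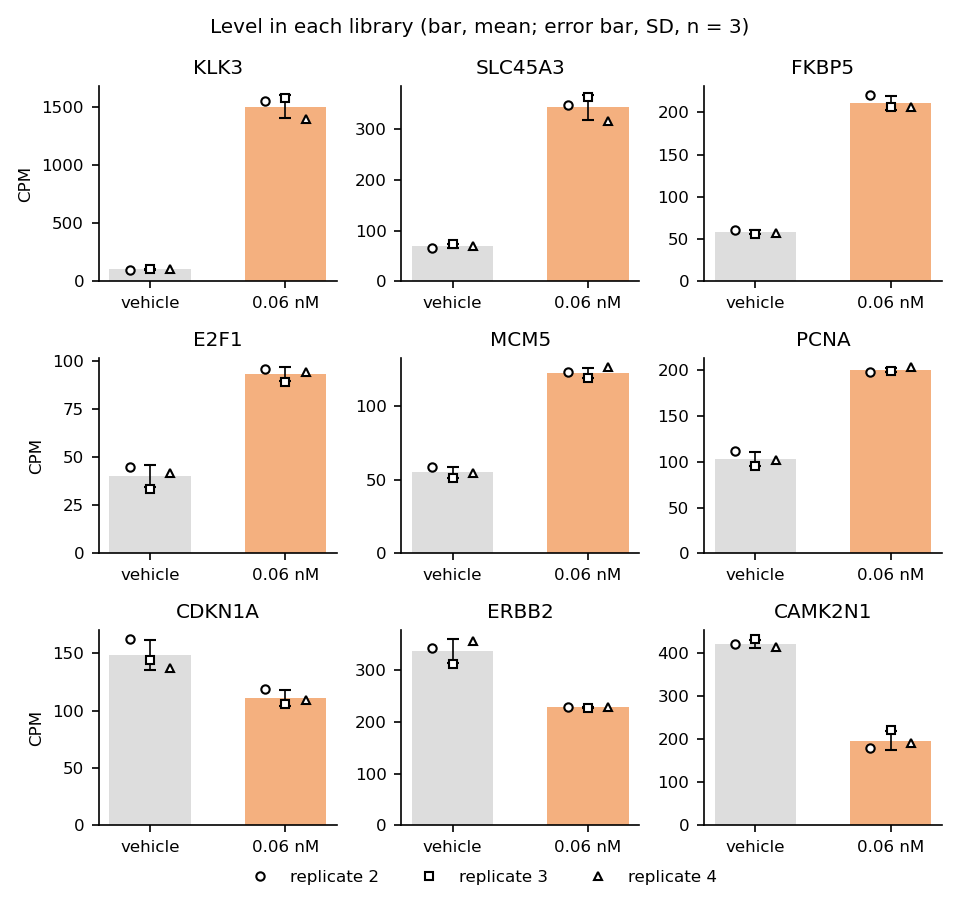
CPM of 9 genes in each of the 6 libraries (points, by replicate number), with the mean (bar) and SD (error bar, n = 3) of vehicle and 0.06 nM R1881. The groups do not overlap in any of the 9: KLK3, SLC45A3, FKBP5, E2F1, MCM5 and PCNA are higher and CDKN1A, ERBB2 and CAMK2N1 lower at 0.06 nM.

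Other large rises lay outside that list. CCDC141, which overlaps TTN on the same strand, rose from 0.0704, 0.111 and 0.162 CPM to 7.46, 6.32 and 7.18 CPM (log2 5.90 ± 0.32 SE, adjusted p = 5.08e-10), from 15 counts in all in vehicle to 771. CHRNA2, a nicotinic acetylcholine receptor subunit, rose 29.1-fold, from 1.10, 0.955 and 1.04 CPM to 34.8, 28.8 and 26.4 CPM. All 3 treated libraries lay far above vehicle in both genes. ST6GALNAC1, the sialyltransferase that makes the sialyl-Tn antigen, rose 15.7-fold, F5, coagulation factor V, 14.7-fold, and HPGD, which inactivates prostaglandins, 13.9-fold. SLC15A2, a peptide transporter, rose 4.90-fold and GRIN3A, an NMDA receptor subunit, 5.10-fold. SLC38A4, an amino acid transporter, had 4 counts in the 3 vehicle libraries and 379 in the treated ones (adjusted p = 2.83e-10).

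Measured as a difference in CPM, large rises were seen in KLK3, FASN and ABHD2. ABHD2, a lipase-like hydrolase, went from 482, 524 and 510 CPM to 1020, 1070 and 919 CPM (log2 0.99 ± 0.07 SE, adjusted p = 1.34e-08). FASN, fatty acid synthase, went from 1990, 1840 and 1780 CPM to 2530, 2500 and 2320 CPM, a rise of only 1.31-fold (adjusted p = 0.000939). The groups did not overlap for either gene. TUBB, a beta-tubulin with near-identical family members, rose 1.28-fold, from 1760, 1520 and 1630 CPM to 2190, 1990 and 2100 CPM (adjusted p = 0.00124).

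Genes known to be repressed by androgen moved down as a group, though fewer passed: 8 of 17 fell, 1 rose, and the median log2 change was -0.71. OPRK1, the kappa opioid receptor, fell from 89.6, 102 and 106 CPM to 26.2, 36.8 and 30.4 CPM (log2 -1.68 ± 0.12 SE, adjusted p = 1.23e-08). CAMK2N1, an inhibitor of calmodulin-dependent kinase II (chr1:20482391-20486220), fell from 422, 433 and 414 CPM to 179, 221 and 192 CPM (log2 -1.10 ± 0.13 SE, adjusted p = 3.16e-06). No treated library of either gene reached the lowest vehicle library. LRRN1, a leucine-rich repeat membrane protein, fell 2.29-fold, and ACKR3, an atypical chemokine receptor, 1.56-fold. CLDN8, a tight junction claudin, was the member that rose, from 4.74, 6.19 and 4.85 CPM to 8.37, 9.71 and 8.65 CPM (adjusted p = 0.0004). UGT2B17 and UGT2B15, paralogous enzymes that conjugate androgens, were lowest in library 3 of both groups. UGT2B17 measured 210, 79.8 and 179 CPM in vehicle and 117, 48.4 and 102 CPM at 0.06 nM (log2 -0.80 ± 0.44 SE, adjusted p = 0.189). UGT2B15 measured 234, 54.6 and 177 CPM and 82.3, 20.6 and 63.5 CPM (log2 -1.47 ± 0.61 SE, adjusted p = 0.076). Neither passed in the main fit, and the groups overlapped in both, though within each library number the treated level was the lower. With library number as a block both passed, with adjusted p = 1.33e-09 for UGT2B17 and 6.46e-17 for UGT2B15. Without the 5 libraries numbered 3 both passed too (0.000437 and 5.2e-06). UGT2B15 also passed without vehicle library 3 alone (0.0231) and in a fit of only the 6 libraries compared (0.041). In all, UGT2B17 passed in 3 and UGT2B15 in 5 of 14 alternative analyses. These counts include the fit with no low-count filter, with adjusted p = 1.24e-33 for UGT2B17 and 1.28e-104 for UGT2B15. Those values were far smaller than in any other fit, and the reason was not tested.

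Among all genes, falls of 3 or more on the log2 scale were seen in 5 genes, against rises of that size in 70. The falls named in this paragraph are smaller than that. They are in genes that averaged 5 CPM or more in vehicle. PLD1, phospholipase D1, fell 7.47-fold, from 6.31, 6.59 and 8.33 CPM to 1.13, 0.757 and 0.918 CPM (log2 -2.90 ± 0.19 SE, adjusted p = 3.66e-09). MAN1A1, a Golgi mannosidase that trims N-glycans, fell 4.76-fold, and AOC1, a diamine oxidase, 4.49-fold. MYLK, myosin light chain kinase, fell from 55.7, 50 and 58.6 CPM to 13.6, 14.6 and 15.4 CPM (adjusted p = 2.42e-11). ABCA1, which exports cholesterol from the cell, fell from 7.72, 5.57 and 10.4 CPM to 2.86, 1.81 and 3.43 CPM (log2 -1.53 ± 0.32 SE, adjusted p = 0.00137). The 3 treated libraries of each lay below all vehicle libraries. By difference in CPM the largest falls were in abundant genes: FOLH1, which encodes prostate-specific membrane antigen, went from 1780, 1860 and 1760 CPM to 1190, 1430 and 1210 CPM (adjusted p = 0.000125), and SELENBP1, a selenium-binding protein, from 1200, 1110 and 1030 CPM to 609, 631 and 648 CPM (adjusted p = 6.25e-08). GRB10, an adaptor that restrains insulin receptor signalling, fell 1.80-fold, and GASK1B 2.07-fold.

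Most of the cell cycle genes tested rose. These are bulk RNA values, in which more cells in a phase and more RNA per cell cannot be told apart. Of 24 tested G1 and S phase cyclins, kinases, E2F factors and retinoblastoma proteins 18 rose and 2 fell, with a median log2 change of 0.61. E2F1, the founding activator of the family (chr20:33675683-33686404), measured 44.7, 33.7 and 41.6 CPM in vehicle and 96, 89.3 and 94.3 CPM at 0.06 nM (log2 1.22 ± 0.09 SE, adjusted p = 3.6e-08). E2F2, a second activator, rose from 10.9, 7.57 and 9.35 CPM to 21.8, 19.9 and 21.8 CPM (log2 1.19 ± 0.11 SE, adjusted p = 3.64e-07). The lowest treated library of each was well above the highest vehicle library. The repressor-type members E2F7 and E2F8 rose 2.71-fold and 2.45-fold. CDC25A, the phosphatase that activates CDK2, rose 2.26-fold, CDK2 itself 2.05-fold and CCNE2, its cyclin E partner, 1.77-fold. CCND1, cyclin D1, stood at 405, 415 and 393 CPM in vehicle and 417, 455 and 410 CPM at 0.06 nM, with overlapping groups (log2 0.08 ± 0.07 SE, adjusted p = 0.435). CDK6, a kinase partner of the D cyclins, rose from 1.62, 2.58 and 1.98 CPM to 5.31, 6.16 and 5.01 CPM, and CDK4 rose 1.28-fold. The 2 that fell were TFDP2 (log2 -0.18) and RBL2 (log2 -0.25), an E2F partner and a retinoblastoma family protein of quiescent cells. RBL1, its relative that is expressed in cycling cells, rose (log2 0.77 ± 0.06 SE, adjusted p = 3.41e-08).

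Of 8 inhibitors of cyclin-dependent kinases 3 rose and 4 fell. The falls numbered 2 without vehicle library 4 or treated library 3. CDKN1A, which encodes p21 (chr6:36676460-36687339), fell from 162, 144 and 137 CPM to 119, 106 and 109 CPM (log2 -0.41 ± 0.08 SE, adjusted p = 0.00112). CDKN1B, which encodes p27, fell from 83.9, 81.2 and 85.4 CPM to 73.7, 69 and 75.3 CPM (log2 -0.20 ± 0.06 SE, adjusted p = 0.0166), a call that was lost without vehicle library 4 or without treated library 3. CDKN2B, which encodes p15, fell 2.01-fold from a low level. CDKN1C, which encodes p57, fell 1.33-fold with an adjusted p of 0.0479, a call lost in 10 of 14 alternative analyses. Those that rose were CDKN2C (1.58-fold) and CDKN2D (1.55-fold), the INK4 proteins p18 and p19, and CDKN3, a phosphatase of CDK2 (1.39-fold).

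Replication genes rose almost without exception. Of 46 genes of origin licensing and replication 44 rose and none fell, with a median log2 change of 0.91, and the groups did not overlap in any of the 46. Over all tested genes the groups did not overlap in 7914 of 18403. CDC6, which loads the helicase at origins, rose from 38.3, 30.6 and 38.2 CPM to 96.7, 88.8 and 97.1 CPM (log2 1.4 ± 0.10 SE, adjusted p = 1.35e-08). DTL, which targets the licensing factor CDT1 for destruction, rose from 23.1, 17.3 and 23.8 CPM to 56.9, 50.5 and 61.9 CPM (adjusted p = 6.13e-08). Both rose 2.64-fold. MCM5, a helicase subunit (chr22:35400063-35425430), rose from 58.7, 51.2 and 54.7 CPM to 123, 119 and 126 CPM (log2 1.16 ± 0.06 SE, adjusted p = 4.12e-10). MCM6, another subunit of the ring, rose from 75.8, 65.8 and 75.2 CPM to 135, 134 and 141 CPM (log2 0.92 ± 0.07 SE, adjusted p = 4.78e-08). PCNA, the sliding clamp (chr20:5114953-5126626), rose from 112, 95.7 and 102 CPM to 198, 199 and 203 CPM (log2 0.96 ± 0.06 SE, adjusted p = 7.5e-09). The treated libraries lay close together in each of these helicase and clamp genes. The remaining members, ORC2 (log2 0.11, adjusted p = 0.0916) and RPA3 (log2 0.26, adjusted p = 0.058), missed the threshold.

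DNA repair genes that act at replication forks rose in 24 of 25 cases, with a median of 0.85. RAD54L, a recombination motor protein, rose 2.29-fold, from 22.8, 18.7 and 20.8 CPM to 50.6, 42.8 and 49.1 CPM, EXO1, an exonuclease, 2.37-fold and BRCA1 2.07-fold. The exception, the checkpoint kinase gene ATM, measured 73.6, 78.1 and 87.4 CPM and 70.2, 78.3 and 77.9 CPM (adjusted p = 0.465). Nucleotide synthesis genes rose in 21 of 26 cases and none fell, with a median of 0.44. RRM2, the S phase subunit of ribonucleotide reductase, rose from 96, 74.2 and 101 CPM to 209, 183 and 230 CPM (log2 1.20 ± 0.13 SE, adjusted p = 1.47e-06). TYMS, thymidylate synthase, rose 1.75-fold. Purine enzymes rose less, for example GMPS 1.38-fold and PRPS1 1.45-fold.

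Of 34 mitotic genes 26 rose and none fell, with a median of 0.58. MKI67, the proliferation antigen Ki-67, measured 167, 130 and 184 CPM in vehicle and 287, 224 and 291 CPM at 0.06 nM (log2 0.74 ± 0.14 SE, adjusted p = 0.000664). CDK1 measured 179, 125 and 159 CPM and 298, 222 and 286 CPM (log2 0.80 ± 0.15 SE, adjusted p = 0.000441). In both groups library 3 was the lowest for each gene, and the groups did not overlap. TOP2A, a topoisomerase of condensing chromosomes, overlapped between groups at 126, 84.5 and 141 CPM against 184, 135 and 199 CPM (log2 0.56 ± 0.20 SE, adjusted p = 0.0364). PLK1 and CCNB1, which peak at the entry to mitosis, did not pass (log2 0.33 and 0.17, adjusted p = 0.141 and 0.392). Without the 5 libraries numbered 3, 32 of the 34 rose. Leaving out vehicle library 3 or treated library 2 left 17 calls, and with treated library 4 left out there were 19. The difference between the replication and mitosis lists was not tested.

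Ribosome production moved in its assembly genes and not in the ribosomal proteins. Of 30 ribosome biogenesis genes 26 rose and none fell (median 0.34), whereas none of 30 cytosolic ribosomal protein genes passed (median -0.01, range -0.08 to 0.08), and none did so in any alternative analysis. LYAR, a nucleolar factor, rose from 17.6, 15.6 and 14.1 CPM to 29, 25.8 and 27.2 CPM (log2 0.80 ± 0.09 SE, adjusted p = 4.29e-06). NOP56, a core protein of the complex that methylates ribosomal RNA, rose from 143, 139 and 130 CPM to 196, 196 and 206 CPM (adjusted p = 3.09e-07). The groups did not overlap in either. MYC, a regulator of growth and ribosome production, rose from 153, 152 and 151 CPM to 214, 207 and 198 CPM (log2 0.44 ± 0.06 SE, adjusted p = 1.4e-05). Of 20 tRNA synthetases 4 rose and of 23 translation factors 7 rose, with none lower in the main fit. Of all tested genes 16.9% rose, and of protein-coding genes over 100 CPM 27.5%, so both counts are near those shares. With library totals, or with library number as a block, 2 translation factors were lower. Without vehicle library 4 or treated library 3, 2 of the synthetases rose. EIF2S1, a subunit of initiation factor 2, rose from 144, 143 and 143 CPM to 200, 201 and 201 CPM (adjusted p = 3.56e-07).

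**Figure D3:**
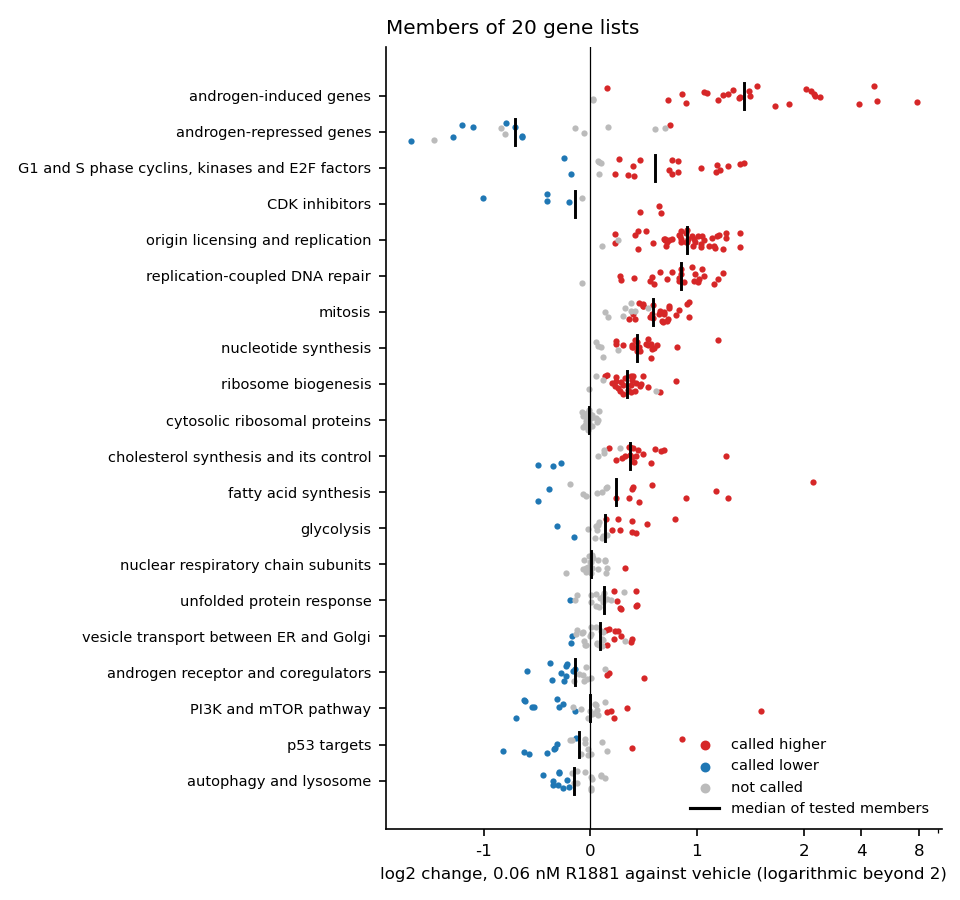
Log2 change at 0.06 nM R1881 against vehicle for the tested members of 20 gene lists (points, coloured by call at adjusted p under 0.05; bar, median; the axis is linear to 2 and logarithmic beyond). Replication, repair, mitosis and nucleotide lists lie to the right, ribosomal proteins stand at 0, and androgen receptor coregulators, p53 targets and autophagy genes hold more lower than higher calls.

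Lipid synthesis rose in part. In cholesterol synthesis 18 of 25 genes rose and 3 fell (median 0.37). SQLE, squalene epoxidase, rose from 37.8, 36 and 37.8 CPM to 51.2, 50.2 and 48.5 CPM (log2 0.43 ± 0.05 SE, adjusted p = 1.75e-06). The groups did not overlap. The 3 that fell were TM7SF2 and HSD17B7, enzymes of late steps, and STARD4, a sterol carrier. ABCG1, like ABCA1 a cholesterol exporter and a target of the sterol receptor LXR, fell 2.02-fold, from 49, 38.2 and 41.1 CPM to 22.9, 20.5 and 20.1 CPM (adjusted p = 6.09e-07). In fatty acid synthesis 10 of 19 rose and 2 fell (median 0.24). Among the 10 are ELOVL5 and ACSL3, which are also in the androgen-induced list. ELOVL7, an elongase of very long chains, rose 4.73-fold, from 14.9, 22.4 and 18.5 CPM to 85.8, 92 and 86.1 CPM, ELOVL5 2.44-fold and ACSL3, an acyl-CoA synthetase, 1.87-fold. SCD, stearoyl-CoA desaturase, measured 1050, 967 and 900 CPM and 1130, 1110 and 1020 CPM (adjusted p = 0.117).

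In central metabolism 9 of 20 glycolysis genes rose and 2 fell (median 0.14), and 8 of 21 genes of the citric acid cycle and pyruvate entry rose and 1 fell (median 0.05). MPC2, a subunit of the mitochondrial pyruvate carrier, rose from 179, 187 and 179 CPM to 408, 401 and 398 CPM (log2 1.15 ± 0.06 SE, adjusted p = 1.2e-10). HK2, hexokinase 2, rose from 31.7, 34.6 and 28.1 CPM to 54.7, 55.3 and 53.2 CPM (adjusted p = 8.19e-07). Treated and vehicle libraries were separate in both. Of 22 nuclear subunits of the respiratory chain 1 rose, CYCS, which encodes cytochrome c (1.25-fold, adjusted p = 0.00679). None of 13 mitochondrially encoded genes passed (median -0.09, and 0.06 without the libraries numbered 3). In hexosamine and polyamine synthesis 10 of 15 rose and none fell. UAP1, which makes UDP-N-acetylglucosamine and is also one of the androgen-induced genes, rose from 120, 128 and 130 CPM to 280, 310 and 282 CPM (log2 1.20 ± 0.06 SE, adjusted p = 2.26e-10). In the secretory pathway fewer genes passed: 7 of 22 genes of the unfolded protein response rose and 1 fell, and 9 of 32 genes of transport between endoplasmic reticulum and Golgi rose and 2 fell. Of all protein-coding genes over 100 CPM, 27.5% rose. For transport, 5 rose without vehicle library 3, and with library totals 5 rose and 3 fell.

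Among partners of the receptor more genes fell than rose. HOXB13, a homeobox partner of the receptor, fell from 584, 576 and 558 CPM to 449, 450 and 420 CPM (log2 -0.38 ± 0.05 SE, adjusted p = 1.08e-05). FOXA1, the pioneer factor that opens its sites, fell from 513, 494 and 542 CPM to 437, 451 and 432 CPM (log2 -0.23 ± 0.05 SE, adjusted p = 0.00159). Both were separate between groups. Of 21 genes of the receptor and its coregulators 10 fell and 3 rose (median -0.14). Without vehicle library 4, 6 fell and 2 rose, and 1 rose when vehicle library 3 or treated library 4 was left out. NCOA3, a coactivator, fell 1.5-fold, and GRHL2, an epithelial factor, was the largest of the rises at 1.41-fold. NR3C1, the glucocorticoid receptor, was near the limit of detection at 0.68, 1.04 and 0.6 CPM and 0.147, 0.658 and 0.262 CPM. Its groups overlapped, and its call (log2 -1.20 ± 0.43 SE, adjusted p = 0.0412) was lost in DESeq2 and in 5 other analyses.

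Growth factor signalling changed in both directions. Of 22 tested genes of receptor tyrosine kinases and ligands 6 rose and 4 fell, with a median log2 change of -0.04. IGF1R, the receptor of insulin-like growth factors, rose 3.55-fold, from 15.9, 24.1 and 20 CPM to 62.2, 83.4 and 67.9 CPM (log2 1.83 ± 0.18 SE, adjusted p = 7.02e-07). IRS2, its docking protein, rose 2.82-fold, and EGFR 1.63-fold, from 66.9, 74.8 and 74.5 CPM to 114, 126 and 112 CPM. ERBB2 (chr17:39687914-39730426), a receptor of the same family as EGFR, fell from 342, 312 and 356 CPM to 229, 226 and 229 CPM (log2 -0.56 ± 0.06 SE, adjusted p = 3.34e-06). Its partner ERBB3 was level, at 250, 248 and 272 CPM and 237, 249 and 257 CPM (adjusted p = 0.498). Of 25 PI3K and mTOR pathway genes 9 fell and 5 rose. Of all tested genes 16.9% rose and 14.3% fell. Without vehicle library 3 or treated library 2, 6 of the pathway genes fell, and in both the calls of SESN2 and DDIT4 were lost. INPP4B, a phosphatase of phosphoinositides, rose from 4.36, 5.02 and 5.26 CPM to 14.9, 14.9 and 14.6 CPM (log2 1.60 ± 0.08 SE, adjusted p = 2.83e-10). The other 4 that rose were MTOR (1.27-fold), AKT1, RHEB and the phosphatase gene PHLPP2. Without vehicle library 4 or treated library 4, 3 rose. Those that fell were SESN3 (1.63-fold), SESN1 (1.54-fold), SESN2 and DDIT4, which restrain the kinase complex mTORC1, its subunits DEPTOR (1.46-fold) and RPTOR, TSC1, PIK3R3 (1.52-fold), a regulatory subunit of PI3K, and FOXO3 (1.44-fold), a transcription factor of quiescent cells.

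Of 20 p53 targets 8 fell and 2 rose (median -0.11), and without treated library 4, 5 fell. CDKN1A, SESN1 and SESN2 are among the 8 and were counted above in other lists. TP53INP1, a stress protein, fell from 488, 425 and 513 CPM to 279, 251 and 279 CPM (log2 -0.82 ± 0.09 SE, adjusted p = 2.54e-06). PMAIP1, which encodes NOXA, and AEN, a nuclease, were the 2 that rose. BMF, a pro-apoptotic member of the BCL2 family, fell from 42.6, 30.1 and 37 CPM to 17.7, 13.9 and 17.7 CPM (log2 -1.15 ± 0.14 SE, adjusted p = 6.39e-06). In neither TP53INP1 nor BMF did the groups overlap. Of 21 autophagy and lysosome genes 9 fell and none rose (median -0.15). The falls numbered 4 without treated library 2, 5 without vehicle library 3 and 6, with 1 rise, without treated library 4. SQSTM1, the autophagy receptor p62, fell from 495, 562 and 486 CPM to 357, 430 and 352 CPM (adjusted p = 0.00106), and MAP1LC3B, a protein of the autophagosome membrane, fell 1.27-fold. In the WNT pathway 9 of 24 fell and 6 rose. WNT7B rose 1.92-fold and FZD5, a receptor of the pathway, 1.99-fold, while WNT5A, a ligand of the noncanonical branch, fell 1.78-fold. PER1, a clock gene with known hormone-responsive transcription, rose from 12.2, 11.5 and 11 CPM to 27.4, 26 and 25 CPM (log2 1.18 ± 0.10 SE, adjusted p = 1.32e-07), and HLF also rose, while PER3, NR1D1, NR1D2 and TEF fell, of 18 clock genes in all. Without vehicle library 2 or 4, 1 of the 18 rose, and with library number as a block 5 rose and 5 fell. Over all tested genes 16.9% rose and 14.3% fell. Of 25 interferon response and antigen presentation genes 5 fell and 2 rose, which is near or below the shares over all genes, and 3 fell without vehicle library 3 or treated library 2.

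Of 3137 long noncoding genes tested 4.78% rose and 10.9% fell, against 21.5% and 16.1% of 13340 protein-coding genes. Since noncoding genes are expressed at low levels, the types were also set side by side within bins of mean CPM. Between 10 and 100 CPM, 27 of 259 long noncoding genes rose (10.4%) and 74 fell (28.6%), and 1893 of 7223 protein-coding genes rose (26.2%) and 1173 fell (16.2%). Between 1 and 10 CPM both types had more falls than rises: 5.38% against 16.4% for long noncoding and 11.9% against 20.8% for protein-coding genes. Up to 1 CPM, 3.36% of 1694 long noncoding genes rose and 4.31% fell. Over 100 CPM there were 13 of them, and 23.1% rose and 15.4% fell. COLCA1, on the opposite strand to POU2AF3, fell from 326, 377 and 291 CPM to 110, 161 and 87.8 CPM (log2 -1.47 ± 0.19 SE, adjusted p = 1.16e-05). PSLNR rose from 0.352, 0.377 and 0.3 CPM to 6.63, 6.58 and 5.22 CPM (log2 4.15 ± 0.20 SE, adjusted p = 1.02e-10). CTBP1-AS, antisense to the corepressor gene CTBP1, rose from 7.2, 7.7 and 9.67 CPM to 25.4, 26.3 and 25 CPM (log2 1.64 ± 0.12 SE, adjusted p = 1.98e-08). The groups did not overlap in these 3, and the strand setting of the counting is not given, so reads of antisense partners may be mixed. Protein-coding genes were also split by span: of 1381 that span over 100 kb and have 10 to 100 CPM 20.6% rose and 24.9% fell, against 27.5% and 14.2% of 5842 shorter ones. These differences between classes were not tested, and their cause was not tested.

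**Figure D4:**
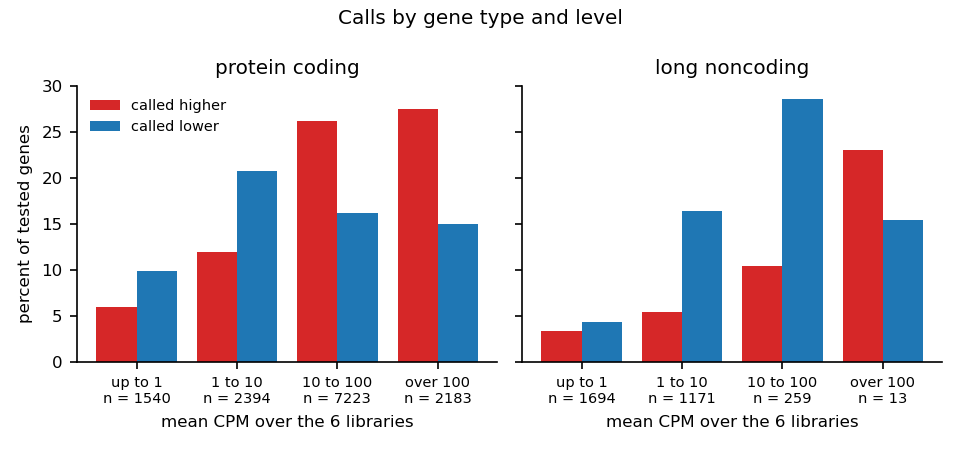
Percent of tested genes called higher (red) and lower (blue) at 0.06 nM R1881, by mean CPM over the 6 libraries, for protein-coding (left) and long noncoding genes (right), with the number tested under each pair. Between 10 and 100 CPM protein-coding genes are more often higher (26.2% against 16.2%) and long noncoding genes more often lower (28.6% against 10.4%).

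The dose was then compared with the next lower one, 0.03 nM, and with the high dose, 10 nM. All 3 comparisons share the 0.06 nM libraries, so their values stand side by side and are not independent. Between these doses 773 genes were higher and 379 lower at 0.06 nM, or 4.2% and 2.06% of the genes tested and 6.26% in all. Here same-numbered libraries deviated together in each of the 3 pairs (correlation of deviations 0.159 to 0.29), and in a fit blocked on that number 1791 genes were higher and 1135 lower. The counts also depended on the scaling (472 higher and 395 lower with library totals alone) and on the libraries (1262 and 687 without those numbered 3). FKBP5 rose from a mean of 95.2 CPM at 0.03 nM to 211 CPM at 0.06 nM (log2 1.15, adjusted p = 5.05e-08), and KLK3 from 775 to 1500 CPM (log2 0.96, adjusted p = 3.02e-06). Of the androgen-induced genes 23 of 28 were higher at 0.06 nM, and of the replication genes 32 of 46, with medians of 0.64 and 0.38. CDC6 rose from a mean of 64.8 to 94.2 CPM (log2 0.54, adjusted p = 0.00285). These list counts are from the fit without the block. With it 26 androgen-induced and 42 replication genes were higher. Of 34 mitotic genes 2 were higher without the block and 32 with it, with a median of 0.33 in both fits, and 31 were higher without the libraries numbered 3. Replication genes numbered 13 to 35 with 1 library left out, with 13 without 0.06 nM library 2, 15 without 0.06 nM library 4, and 17 and 20 without 0.03 nM libraries 2 and 4.

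Against the high dose the picture divided by gene group. At 10 nM 4182 genes were higher and 4159 lower than at 0.06 nM, which is 22.7% and 22.6% of the genes tested and 45.3% in all. With library totals in place of the scaling factors, which shifted the median of all genes from -0.03 to -0.21, the split was 2333 higher and 7043 lower. Androgen-induced genes were higher still at 10 nM in 27 of 28 cases, but the share of the 10 nM level that 0.06 nM reached varied widely. TRPM8 was at 110% of its 10 nM level (27 against 24.4 CPM, adjusted p = 0.532), KLK4 at 73.2%, KLK3 at 39% and TMPRSS2 at 23.9%. FKBP5 was at 8.59% (211 against 2450 CPM, log2 3.54, adjusted p = 4.36e-16) and CCDC141 at 10.9%. STEAP4 reached 142 CPM at 10 nM. Its 72 counts at 0.06 nM are not CPM but a raw sum over 3 libraries of at least 30666460 total counts each. TIPARP, level between vehicle and 0.06 nM, reached 44.7 CPM at 10 nM (log2 2.32, adjusted p = 9.47e-14).

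Replication and repair genes were lower at 10 nM than at 0.06 nM in 38 of 46 and 21 of 25 cases, with none higher. MCM5 had a mean of 122 CPM at 0.06 nM and 77.6 CPM at 10 nM (log2 -0.66, adjusted p = 9.76e-08), and PCNA 200 and 129 CPM (log2 -0.63, adjusted p = 2.29e-07). Mitotic genes were lower in 4 of 34 cases, and in 2 without 0.06 nM library 4 or 10 nM library 3. Without the libraries numbered 3, 8 were lower and 1 higher. With library number as a block 12 mitotic genes were lower and 2 higher, and with no low-count filter 9 were lower. That block left 40 replication genes lower and 1 higher. All 22 unfolded protein response genes and all 32 genes of transport between endoplasmic reticulum and Golgi were higher at 10 nM, 20 and 29 of them with library totals. Autophagy genes were higher in 10 of 21 cases, but with library totals 2 were higher and 5 lower. MYC was at 206 CPM at 0.06 nM and 110 CPM at 10 nM (log2 -0.91, adjusted p = 6.47e-10).

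Some genes were chosen because their level at 0.06 nM was called above, or below, both the vehicle and the 10 nM level. The choice did not use 0.03 or 0.1 nM, and the levels given are a description. TERT, the catalytic subunit of telomerase, had a mean of 4.24 CPM at 0.03 nM, 6.59 CPM at 0.06 nM, 6.76 CPM at 0.1 nM and 2.38 CPM at 10 nM. In vehicle it measured 2.49, 1.69 and 2.28 CPM and at 0.06 nM 6.63, 5.96 and 7.18 CPM. E2F2 stood at 21.2 CPM at 0.06 nM, 22.8 CPM at 0.1 nM and 11.1 CPM at 10 nM. ORC1, the largest subunit of the origin recognition complex, stood at 32.4, 38.1 and 17.3 CPM at these doses and TONSL, a repair factor of stalled forks, at 95, 100 and 49.9 CPM. The means at 0.06 and 0.1 nM lay close together in TERT, E2F2 and TONSL. Of the 8 genes chosen as higher at 0.06 nM, ZPLD1 and THBS1, thrombospondin 1, had their top mean at 0.06 nM itself. ZPLD1 stood at 10.4 and 8.58 CPM at 0.06 and 0.1 nM, and THBS1 at 9.8 and 9.31 CPM.

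Other genes were chosen because they were lower at 0.06 nM than in vehicle and at 10 nM, and their levels are likewise a description. SOX9, a transcription factor of progenitor cells, measured 8.09, 13.1 and 10.3 CPM in vehicle and 4.18, 5.53 and 4.27 CPM at 0.06 nM, and its mean at 10 nM was 19.9 CPM. GADD45G, a stress and arrest protein, measured 16.5, 19.6 and 16.1 CPM and 9.32, 10.2 and 8.97 CPM, and 55.2 CPM at 10 nM. CDKN2B measured 3.12, 4.42 and 2.95 CPM and 1.79, 1.78 and 1.65 CPM, and 9.19 CPM at 10 nM. WNT5A followed the same order, with 5.2 CPM at 0.06 nM and 13.8 CPM at 10 nM, as did ERBIN, a scaffold that binds ERBB2, with 154 and 306 CPM. In each of these the treated libraries lay below all vehicle libraries.

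**Figure D5:**
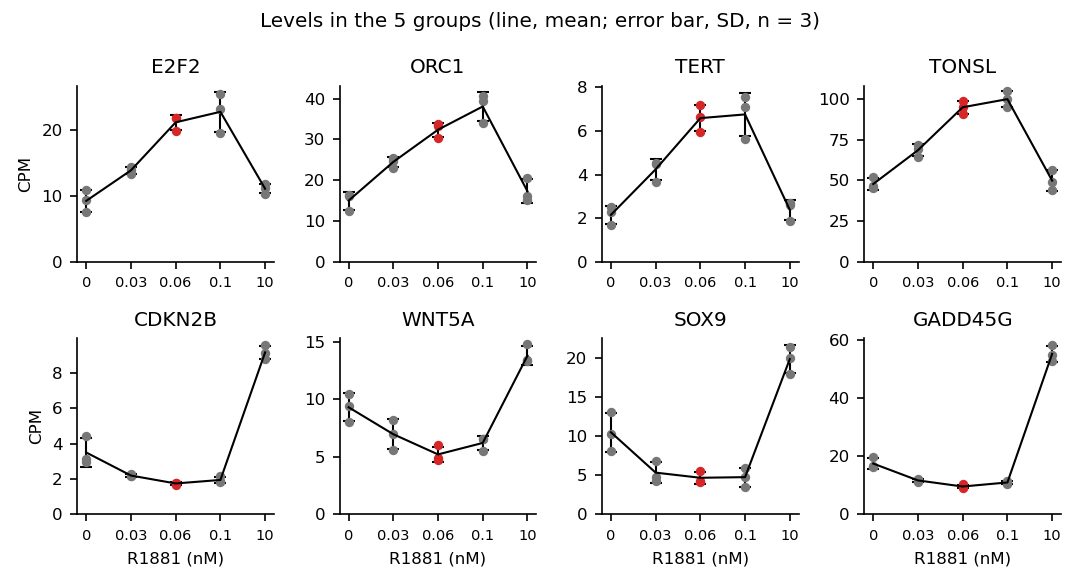
CPM of 8 genes at 0, 0.03, 0.06, 0.1 and 10 nM R1881 (equally spaced groups, not a linear dose axis): points are libraries, with those at 0.06 nM in red, the line joins means and error bars are SD (n = 3). The means of E2F2, ORC1, TERT and TONSL are highest at 0.1 nM with 0.06 nM next, and those of CDKN2B, WNT5A, SOX9 and GADD45G are lowest at 0.06 nM and highest at 10 nM.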

How the data were processed

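The authors deposited raw read counts per gene for 15 LNCaP libraries, made from total RNA with a stranded messenger RNA kit, per the labels' protocols. Trimmomatic 0.39, STAR 2.7.8a, DESeq2 1.36.0 and the build GRCh38 (hg38) are named per the submitters' processing notes. The counter, annotation release and strand setting are not given in the sources used here, so antisense and overlapping genes are uncertain. Gene positions and types came from GENCODE 29 (GRCh38), and promoter sequences from RefSeq.

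Counts were analysed with edgeR 4.0.16 (limma 3.58.1) in R 4.3.3. Genes were filtered with filterByExpr, scaled with TMM factors and tested with glmQLFit and glmQLFTest, with 1 mean for each of the 5 LNCaP groups, so that all 15 libraries share 1 estimate of the spread. P-values were adjusted by Benjamini-Hochberg over all 18403 tested genes. Every adjusted p in the text is from this test, except some of those for UGT2B17 and UGT2B15. Those come from the same test run on fewer libraries, with a block or with no low-count filter, as stated beside them. The script was tested on simulated counts. CPM values use the TMM-scaled library sizes. DESeq2 1.42.0, other scalings, other filters, a replicate block and leaving out libraries were alternatives.

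Named genes were the 20 largest changes each way at a mean of at least 5 CPM in a group, the 8 largest differences in CPM, 4 members of each gene list by smallest p, fixed androgen and cell cycle genes, genes highest or lowest at 0.06 nM, and the 6 largest noncoding changes. ADAMTS1, AKT1, ATM, BRCA1, CCNB1, CDK4, CDK6, CDKN1C, CDKN3, CLDN8, DEPTOR, DTL, E2F7, E2F8, EXO1, HLF, HSD17B7, MCM6, MTOR, NR1D1, ORC2, PHLPP2, PLK1, RBL2, RHEB, RPA3, RPTOR, SCD, STARD4, STEAP4, TFDP2, TIPARP, TM7SF2, TSC1 and UGT2B15 are list members named after their values were seen. The comparison and the gene lists were chosen with earlier results of these data known. Gene list members absent from the table (such as KRT5 and COL1A2) were not analysed here. Same-numbered libraries of 0.06 nM and vehicle deviated together with correlations of 0.179, 0.222 and 0.099, and the labels do not say that a number marks a shared culture or day. Some genes are not reported here.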

Additional observations from a re-analysis of the deposited data

How the results depend on the processing

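The count of 5747 genes called at 0.06 nM against vehicle stayed within 1.5 times under every alternative run, and so did the counts of rises and falls: it was 5562 in DESeq2, 5438 with library totals and 4493 to 5140 with 1 library left out. With a replicate block it was 7290 (3801 higher, 3489 lower), where 10 androgen-repressed genes were lower against 8 and 33 mitotic genes higher against 26. Deviations from the group mean correlated best between 0.06 nM and vehicle libraries of the same number, with 1 pair at 0.099. Whether same-numbered libraries share a day or batch is not given. The comparison with 0.03 nM moved most. With a replicate block 2926 genes were called (1791 higher, 1135 lower), and without the 5 libraries numbered 3 1949 (1262 and 687). Library totals gave 472 higher, and no low-count filter gave 603 lower. With 1 library left out the calls ran from 434 to 1221, from 303 to 782 higher and from 131 to 439 lower. They were 582 without 0.03 nM library 2, 535 without 0.03 nM library 4, 434 without 0.06 nM library 2 and 674 without 0.06 nM library 4. At 10 nM against 0.06 nM, library totals gave 2333 higher and 7043 lower. The cause of these moves was not tested. None of the 269 named genes with a test reversed under the alternatives run. Calls of TOP2A and NR3C1 were each lost in 6 of them. Genes with few counts, such as STEAP4, have uncertain fold changes.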
